A study of Mus musculus with 2 samples.

Results

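The transcripts described here are those of 8 genes through which steroid hormones act or whose levels they set: the receptors Nr3c1 and Esr1, the receptor co-chaperones Fkbp5 and Fkbp4, and the hormone-induced genes Tsc22d3, Zbtb16, Per1 and Sgk1. They were chosen by symbol, with earlier results of these data known, from the 32285 genes of the count matrices. Of these genes, 26222 had at least 1 transcript in a kept cell. All 8 were detected. Dorsal skin of male C3H/HeN mice, shaved at 7 weeks of age and collected at 9 weeks, was pooled from 15 animals per group and made into 1 single-cell library per group. The control group received vehicle and the TP group received 0.5 mg of testosterone propionate per day under the skin, a model of androgenetic alopecia in otherwise unmodified mice. The group that also received an antibody is not analysed here. Each transcript captured is counted once through its unique molecular identifier (UMI), read at the 3′ end.

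Steroid receptors wait in the cytoplasm or nucleus bound to a heat shock protein machine, and a hormone that enters the cell turns them into transcription factors. Glucocorticoid, androgen, progesterone and mineralocorticoid receptors recognise closely related palindromic DNA elements, so a part of their targets is shared, and the product of Fkbp5 lowers the hormone affinity of the glucocorticoid receptor that induces it. In skin, glucocorticoids restrain inflammation and keratinocyte growth, and the glucocorticoid receptor is made in nearly every cell type.

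The glucocorticoid response element, searched as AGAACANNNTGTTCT in the 250 bases before each annotated transcript start, was present in 1 of 15 windows of 6 members, an inner start of Sgk1, and in 3 of 32851 windows of all genes (0.00913%). The E-box CACGTG, the element of clock and related factors, was in 1 window each of Fkbp5, Per1 and Sgk1 and in 6.02% of all windows. Neither the oestrogen response element GGTCANNNTGACC nor the cyclic AMP element TGACGTCA was in a member's window, and they were in 0.0639% and 1.55% of all windows. Both strands were covered, since all 4 motifs are palindromes, and no match overlapped another. The windows with a match are printed because they place these elements at members whose levels differed (Per1, Fkbp5) and at one whose level was nearly equal over all cells (Sgk1). No match lay in a window of Tsc22d3, whose level differed too (ratio 1.90), or of Esr1 or Fkbp4. The printed windows are RefSeq sequences of GRCm38.p6 in the direction of transcription, with the matches in capitals. A match describes letters only, and no binding was measured. Nr3c1 and Zbtb16 had no entry.
Sgk1 (chr10:21993640-21993889, plus strand, E-box first and glucocorticoid response element beginning 189 bases before the start): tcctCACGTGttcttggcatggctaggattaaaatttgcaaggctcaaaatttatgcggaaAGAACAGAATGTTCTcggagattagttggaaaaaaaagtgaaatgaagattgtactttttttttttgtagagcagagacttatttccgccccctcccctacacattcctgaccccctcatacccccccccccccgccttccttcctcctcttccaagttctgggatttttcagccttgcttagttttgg
Per1 (chr11:69098699-69098948, plus strand): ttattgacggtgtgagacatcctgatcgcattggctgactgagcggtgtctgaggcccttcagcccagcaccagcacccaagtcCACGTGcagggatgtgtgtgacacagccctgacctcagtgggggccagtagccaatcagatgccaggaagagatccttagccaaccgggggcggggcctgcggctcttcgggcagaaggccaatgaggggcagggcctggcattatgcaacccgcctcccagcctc
Fkbp5 (chr17:28486150-28486399, minus strand): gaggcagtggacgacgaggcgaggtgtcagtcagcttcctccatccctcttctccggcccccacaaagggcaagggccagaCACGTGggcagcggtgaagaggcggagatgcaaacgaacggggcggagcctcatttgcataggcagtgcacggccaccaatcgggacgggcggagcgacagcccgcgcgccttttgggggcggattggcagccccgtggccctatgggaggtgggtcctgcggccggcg

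After the limits on genes, mitochondrial counts and doublets, the control library held 39076 cells with 105675657 UMIs (median 2045 per cell) and the TP library 18542 cells with 132410337 UMIs (median 4776). The mitochondrial limit removed 3465 control and 5871 TP barcodes, and 303 barcodes occurred in both libraries. The cells formed 32 clusters, of which 26 took the names of 15 cell classes from marker genes, written with the ending -like. The members and the genes of the lists used here were kept out of the clustering. A level is the UMIs of a gene per 1000000 UMIs of the class (CPM), with an exact Poisson interval at 95%, and a ratio is TP over control with an exact conditional binomial interval. With 1 pool per group no test between groups was possible. The intervals cover counting error only, and differences between animals, dissociations or libraries cannot be told apart from the treatment. Where both libraries are scaled by TMM factors in place of the UMI total, every whole-library ratio is higher by 0.25 on the log2 scale.

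Over all kept cells, Zbtb16 stood highest in TP relative to control among the members, at 30.3 CPM in control and 136 CPM in TP (ratio 4.48, 4.32 to 4.65). Tsc22d3 went from 42.02 to 79.7 CPM (ratio 1.90, 1.83 to 1.97), Per1 from 15.0 to 26.7 CPM (ratio 1.78, 1.68 to 1.89) and Fkbp5 from 29.2 to 51.2 CPM (ratio 1.76, 1.68 to 1.83). The 4 other members differed less. Nr3c1 was at 122 CPM in control and 146 CPM in TP (ratio 1.19, 1.17 to 1.22). Esr1 had 23.7 and 20.1 CPM (ratio 0.847, 0.802 to 0.895), Fkbp4 112 and 108 CPM (ratio 0.963, 0.940 to 0.987) and Sgk1 38.8 and 36.8 CPM (ratio 0.9502, 0.911 to 0.991), and with TMM factors these 3 came to 1.01, 1.15 and 1.13. Of the 8 members 1, Zbtb16, was at least 2-fold higher in TP and 0 were at least 2-fold lower, against 8.43% and 10.5% of the 17560 genes with at least 50 UMIs. The median log2 ratio of the members was 0.53, beside -0.24 over those genes.

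The libraries differed in which cells they held, and the ratios depended on it. Inner root sheath-like cells numbered 8971 in control and 1389 in TP, and dermal fibroblast (DF)-like cells 139 and 615. With the TP level of each cluster weighted by the control's cluster shares of UMIs, the ratio of Zbtb16 was 2.28, that of Per1 1.80, that of Fkbp5 1.39 and that of Tsc22d3 1.37. Under the same weights Nr3c1 went to the other side of 1 at 0.918 and so did Fkbp4 at 1.15, while Esr1 came to 0.548 and Sgk1 to 0.996. With the TP library's shares instead, the ratios were 2.22 for Zbtb16, 1.38 for Per1, 1.87 for Fkbp5, 1.17 for Tsc22d3, 0.939 for Nr3c1, 1.12 for Fkbp4, 0.553 for Esr1 and 0.918 for Sgk1.

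**Figure D1:**
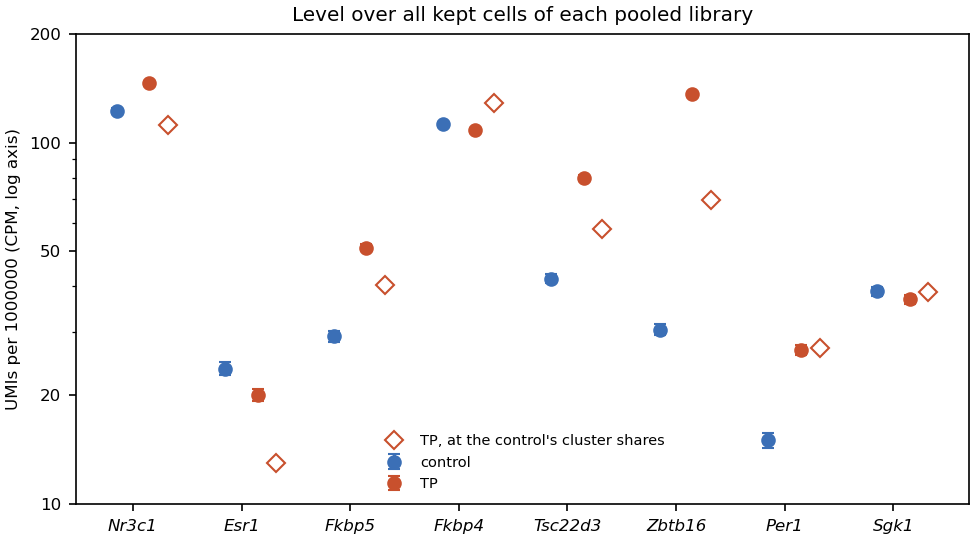
Level of each member over all kept cells in UMIs per 1000000 on a log axis. Filled points are the control and TP libraries with exact Poisson intervals, and open diamonds give TP with its clusters weighted by the control's shares. Zbtb16 is at 30.3 CPM in control and 136 CPM in TP, and the diamonds of Nr3c1 and Esr1 lie below their control points.

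Within classes, 110 pairs of a member and a class held at least 20 UMIs, and in 25 of them the level was at least 2-fold higher in TP and in 3 at least 2-fold lower. Over all genes and classes, 4.43% of pairs were at least 2-fold higher and 9.02% at least 2-fold lower. Zbtb16 gave 10 of the 25 pairs, Fkbp5 7, Per1 4, and Tsc22d3 and Nr3c1 2 each. The 3 lower pairs were Sgk1 in myeloid-like and melanocyte-like cells and Esr1 in suprabasal-like cells of the interfollicular epidermis (IFE). TMM factors within classes were 0.773 to 0.969, and they moved 11 of the 110 pairs across 1, all with ratios between 0.837 and 0.996.

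**Figure D2:**
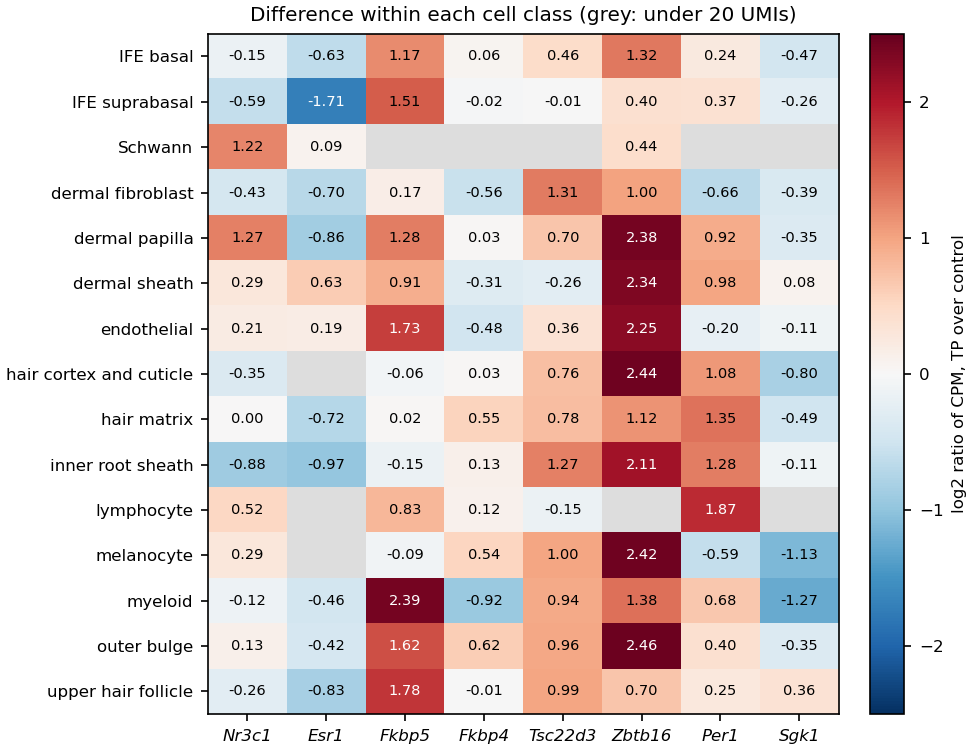
Log2 ratio of CPM, TP over control, for each cell class (rows) and member (columns), where red is higher in TP, blue lower and grey marks pairs under 20 UMIs. The Zbtb16 column is above 0 in every class shown, from 0.40 in IFE suprabasal-like to 2.46 in outer bulge-like cells, and the Fkbp5 column is near 0 in hair matrix-, inner root sheath- and cortex-like cells.

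Nr3c1 (ENSMUSG00000024431, chromosome 18, 39410545 to 39519421), the glucocorticoid receptor, was found in every class. In control it was highest in endothelial-like cells at 358 CPM (292 to 436, 100 UMIs), with DF-like cells at 315, outer bulge-like cells at 310 and myeloid-like cells at 275 CPM, neighbours whose intervals overlapped. Lymphocyte-like cells followed at 218 CPM. Dermal papilla cell (DPC)-like, dermal sheath-like, upper hair follicle-like and IFE basal-like cells lay between 180 and 161 CPM, each overlapping the next. IFE suprabasal-like, Schwann-like, melanocyte-like and hair matrix-like cells had 136, 104, 102 and 102 CPM. The hair lineages were lowest, with 88.6 CPM in inner root sheath-like and 32.4 CPM in hair cortex and cuticle-like cells, and both were apart from the class above them. The inner root sheath-like class takes 3259 of its 8971 control cells from cluster 2, which is led by the mitotic genes Knl1, Aspm and Cenpe and had no inner root sheath marker among its leading 10 genes. Nr3c1 had 147 and 89.7 CPM in that cluster, control before TP, and 43.5 and 19.5 CPM in cluster 1, led by Krt73.

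In TP the order of Nr3c1 changed at the top. DPC-like cells, in the middle of the control order at 180 CPM (2170 UMIs), were first at 433 CPM (4072 UMIs), a ratio of 2.41 (2.29 to 2.54), with endothelial-like cells next at 414 CPM and overlapping them. Schwann-like cells had a ratio of 2.33 on 9 and 29 UMIs (1.08 to 5.60), and lymphocyte-like cells one of 1.43 on 99 and 80 UMIs (1.05 to 1.94). The interval lay below 1 in 5 classes, namely inner root sheath-like cells at 48.1 CPM (ratio 0.543, 0.493 to 0.597), IFE suprabasal-like cells at 90.5 CPM (ratio 0.663, 0.632 to 0.696), DF-like cells at 234 CPM (ratio 0.742, 0.626 to 0.885), upper hair follicle-like cells at 144 CPM (ratio 0.833, 0.747 to 0.930) and IFE basal-like cells at 145 CPM (ratio 0.903, 0.839 to 0.973). In DF-like cells the ratio was 0.874 at the control's cluster shares and 0.960 with TMM factors, and in IFE basal-like cells it passed to 1.04 with TMM factors. Hair matrix-like cells stayed at 102 CPM (ratio 1.00, 0.896 to 1.12), and in outer bulge-like cells the ratio was 1.09 (0.986 to 1.21). Cells thinned to 1000 UMIs each, so that depth was equal, showed Nr3c1 in 15.4% of control and 32.8% of TP DPC-like cells.

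The difference in DPC-like cells followed 1 of the 3 clusters that make up the class. Cluster 24, led by Gpc5, Dkk2 and Igfbp3, held 46 control and 516 TP cells, whereas clusters 7 and 10 held 2462 and 1659 control and 585 and 565 TP cells. Nr3c1 was at 574 CPM (432 to 750, 54 UMIs) in control and 1048 CPM (1007 to 1090, 2470 UMIs) in TP in cluster 24, which is several times its level in cluster 7 (176 and 227 CPM) and cluster 10 (178 and 229 CPM). Both other clusters had a ratio of 1.29 (1.17 to 1.41). With the clusters at the control's shares, the ratio of the class fell from 2.41 to 1.30. At clustering resolution 0.6, 36 control and 309 TP cells of cluster 24 lost the DPC name, 10 and 207 stayed in the class, and all 159 and 124 dermal sheath-like cells joined it. The ratio of that class was 1.54 for Nr3c1 (1.46 to 1.63), 1.35 for Fkbp5 and 1.73 for Zbtb16. One TP cell held 94 of the UMIs.

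All 7 DPC markers were detected in cluster 24 in both libraries, at a summed 3830 CPM in control and 4744 CPM in TP, below the 12541 to 18623 CPM of the other clusters. The DPC list gave cluster 24 its highest marker score, 1.86, below the 3.27 of cluster 7 and the 2.94 of cluster 10. No DPC marker was among the leading 10 genes of cluster 24, nor among those of cluster 10. Inner root sheath markers, 7 of 7 detected, summed to 3724 CPM in the 46 control cells and 524 CPM in the TP cells, and were also higher in control in cluster 7 (2734 and 467 CPM) and cluster 10 (1637 and 388 CPM). DF markers summed to 223 and 232 CPM in cluster 24, with Lum, Clec3b and Mfap5 at 0 in its control cells. The part of RNA from other cells in the level of Nr3c1 was not tested.

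**Figure D3:**
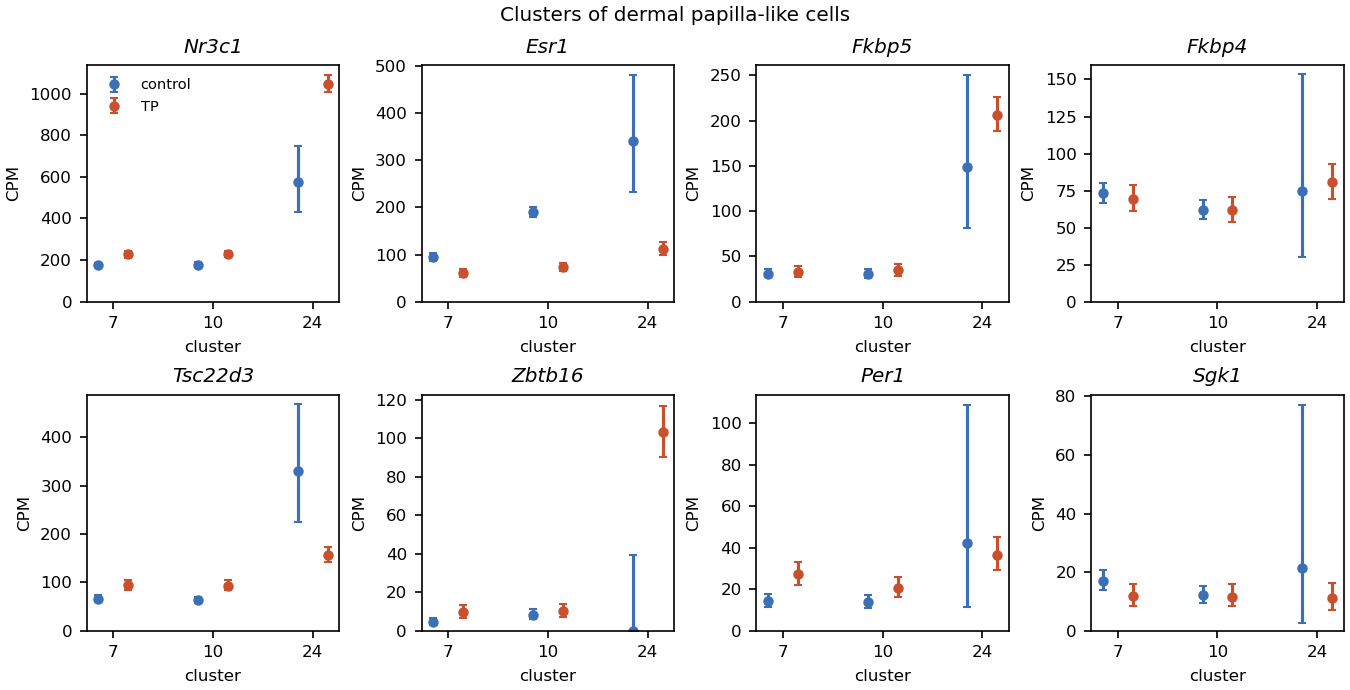
Level of each member in the 3 clusters of DPC-like cells, in CPM with exact Poisson intervals, control beside TP. Cluster 24 has the highest Nr3c1, at 574 and 1048 CPM, and Esr1 is lower in TP in each of the clusters.

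Esr1 (ENSMUSG00000019768, chromosome 10, 4611989 to 5005633), the oestrogen receptor alpha, was highest in DF-like cells in both libraries. In TP its interval there (235 to 263 CPM) overlapped that of Schwann-like cells (136 to 309 CPM, 25 UMIs). In control it stood at 405 CPM (194 UMIs) in DF-like, 197 CPM (17 UMIs) in Schwann-like and 142 CPM (1710 UMIs) in DPC-like cells, and the interval of DF-like cells was above that of the next class. Myeloid-, endothelial-, IFE basal-, upper hair follicle- and dermal sheath-like cells followed with 44.4 to 17.7 CPM, each overlapping its neighbour. IFE suprabasal-like cells had 6.90 CPM, lymphocyte-like 6.59 and outer bulge-like 3.61 CPM. The other classes were under 3 CPM, and of hair cortex and cuticle-like cells the TP library gave 0 UMIs. There 3 counts would be 1.77 CPM, and the exact Poisson interval reaches 2.17 CPM.

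Esr1 was lower in TP in 9 of the 12 classes with enough UMIs, and the 3 others, Schwann-, dermal sheath- and endothelial-like cells, had intervals that include 1. So did 4 of the 9, namely hair matrix-, inner root sheath-, myeloid- and outer bulge-like cells. The median log2 ratio over all genes was itself below 0 in 14 of the 15 classes, from -0.31 to -0.03, and 0.02 in Schwann-like cells. DPC-like cells had 142 and 77.9 CPM (ratio 0.549, 0.503 to 0.599), DF-like cells 405 and 249 CPM (ratio 0.615, 0.528 to 0.719), and IFE basal-like cells 31.6 and 20.4 CPM (ratio 0.647, 0.541 to 0.775). The lowest ratio was that of IFE suprabasal-like cells at 0.305 (0.234 to 0.396), from 6.90 to 2.10 CPM on 128 and 110 UMIs. Every DPC-like cluster had less Esr1 in TP: cluster 7 by a ratio of 0.632 (0.538 to 0.741), cluster 10 by 0.385 and cluster 24 by 0.329. In DF-like cells the ratio was 0.833 once their clusters were weighted by the control's shares. The whole-library ratio, 0.847, stood beside 0.548 at the control's cluster shares.

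Fkbp5 (ENSMUSG00000024222, chromosome 17, 28398753 to 28486149), the immunophilin that dampens the glucocorticoid receptor and is itself induced by glucocorticoids and androgens, was at least 2-fold higher in TP in 7 of 14 classes. These were IFE basal-like (15.8 and 35.6 CPM), IFE suprabasal-like (13.6 and 38.8 CPM), outer bulge-like (26.0 and 79.6 CPM), upper hair follicle-like (26.8 and 92.2 CPM), endothelial-like (50.2 and 166 CPM), DPC-like (31.8 and 77.0 CPM) and myeloid-like cells (19.4 and 102 CPM). Their ratios were 2.25, 2.85, 3.07, 3.44, 3.31, 2.42 and 5.26, that of myeloid-like cells on 7 and 177 UMIs (2.498 to 13.3). In upper hair follicle-like cells the interval was 2.70 to 4.44.

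The lineages of the growing hair did not share this difference. Hair matrix-like cells had 58.1 and 59.1 CPM (ratio 1.02, 0.878 to 1.18), inner root sheath-like cells 22.4 and 20.2 CPM (ratio 0.900, 0.767 to 1.05) and hair cortex and cuticle-like cells 24.7 and 23.6 CPM (ratio 0.956, 0.644 to 1.40). All 3 intervals lie below the intervals of IFE basal-, IFE suprabasal-, outer bulge- and upper hair follicle-like cells. Melanocyte-like cells, at 0.939 on 26 and 21 UMIs, had an interval of 0.502 to 1.74. In DPC-like cells the ratio fell to 1.10 at the control's cluster shares, since cluster 24 had 149 and 207 CPM while cluster 7 (31.0 and 32.6 CPM) and cluster 10 (30.7 and 34.4 CPM) were near each other in both libraries. DF-like cells were highest in control at 117 CPM, overlapping lymphocyte-like cells, and had 132 CPM in TP. Their ratio was 1.13 (0.858 to 1.51), or 1.52 at equal cluster shares.

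With cells thinned to 1000 UMIs, Fkbp5 was seen in 1.88% (1.12 to 2.96) of control and 9.63% (8.11 to 11.3) of TP upper hair follicle-like cells, with exact binomial intervals. In inner root sheath-like cells the shares were 2.42% and 1.77%. Before thinning the shares in upper hair follicle-like cells were 5.82% and 30.7%.

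Fkbp4 (ENSMUSG00000030357, chromosome 6, 128430103 to 128438656), the co-chaperone that promotes receptor transport and hormone binding, showed neither a 2-fold higher nor a 2-fold lower level in any of 14 classes. It was highest in hair matrix-like cells in both libraries, at 216 CPM in control and 316 CPM in TP (ratio 1.46, 1.36 to 1.57), apart from every other class. That class joins cluster 15, led by Kcnip1 and Shh, with cluster 21, led by histone genes and with no hair matrix marker among its leading 10, and cluster 21 gave 554 of 1982 control cells and 321 of 586 in TP. The ratio was 1.41 in cluster 15 and 1.35 in cluster 21, and 1.38 for the class at the control's cluster shares. Inner root sheath-like cells had 117 and 128 CPM. Outer bulge-like cells had 85.9 and 132 CPM (ratio 1.54, 1.27 to 1.88), and myeloid-like cells 72.1 and 38.1 CPM (ratio 0.528, 0.331 to 0.866). DF-like cells were lowest in both, at 52.2 and 35.4 CPM. Thus the 2 co-chaperones had their highest control levels in different classes, hair matrix-like for Fkbp4 and DF-like for Fkbp5. For Fkbp5 the control interval of DF-like cells (88.3 to 152 CPM, 56 UMIs) overlapped that of lymphocyte-like cells (48.1 to 99.3 CPM).

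Tsc22d3 (ENSMUSG00000031431, chromosome X, 140539528 to 140600522) encodes the glucocorticoid-induced leucine zipper, which restrains inflammatory signalling. Myeloid-like cells were highest in both libraries, at 158 CPM (57 UMIs) in control, level with dermal sheath-like cells at 157 CPM, and at 304 CPM (527 UMIs) in TP, above all other classes (ratio 1.92, 1.46 to 2.57). DF-like cells had 50.1 and 124 CPM (ratio 2.47, 1.65 to 3.89) and inner root sheath-like cells 14.3 and 34.5 CPM (ratio 2.40, 2.07 to 2.79), the 2 classes past 2-fold. Upper hair follicle-, outer bulge- and melanocyte-like cells lay just under it at 1.98, 1.95 and 1.99. IFE suprabasal-like cells, with 1899 and 5303 UMIs, had 102 and 101 CPM (ratio 0.990, 0.939 to 1.04), an interval below those of the 2 classes past 2-fold. Hair matrix-like cells had the least in both libraries, 7.61 and 13.1 CPM. In cluster 24 of the DPC-like cells Tsc22d3 went the other way from clusters 7 and 10, with 330 CPM (31 UMIs) in control and 157 CPM in TP (ratio 0.476, 0.330 to 0.711), against 1.41 and 1.47.

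Zbtb16 (ENSMUSG00000066687, chromosome 9, 48651797 to 48836225) encodes the zinc finger repressor PLZF, a gene strongly induced by glucocorticoids, androgens and progestins in many cell types. Its level was higher in TP in each of the 14 classes with enough UMIs, and also with the TMM factors of each class. In Schwann-like cells the interval includes 1, on 8 and 15 UMIs (ratio 1.36, 0.540 to 3.70). Outer bulge-like cells, the hair follicle stem cell compartment, had 91.6 CPM in control (127 UMIs) and 503 CPM in TP (4111 UMIs), a ratio of 5.49 (4.599 to 6.601). They were the highest class in TP, apart from all others. In control the highest were upper hair follicle-like and DF-like cells at 163 CPM each, which had 265 and 326 CPM in TP (ratios 1.63, 1.47 to 1.80, and 2.00, 1.59 to 2.54), the latter just under 2-fold before rounding. IFE basal-like cells had 100 and 250 CPM (ratio 2.497, 2.30 to 2.71) and IFE suprabasal-like cells 80.8 and 107 CPM (ratio 1.32, 1.246 to 1.40). The intervals of outer bulge-like, IFE basal-like and IFE suprabasal-like cells do not overlap.

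Endothelial-like cells had 43.0 and 204 CPM of Zbtb16 (ratio 4.75, 2.64 to 9.39) and melanocyte-like cells 9.57 and 51.4 CPM (ratio 5.37, 2.91 to 10.7). The hair lineages were low in both libraries and still higher in TP, with 3.16 and 13.6 CPM in inner root sheath-like (ratio 4.31, 3.25 to 5.76), 2.83 and 15.3 CPM in cortex and cuticle-like and 4.29 and 9.31 CPM in hair matrix-like cells (ratio 2.17, 1.37 to 3.51). RNA that leaks from other cells into droplets can give such levels, and its part was not tested. After thinning, Zbtb16 was seen in 7.91% (5.69 to 10.7) of control and 35.1% (32.7 to 37.6) of TP outer bulge-like cells, beside 0.267% and 1.10% of inner root sheath-like cells. One TP outer bulge-like cell held 55 UMIs.

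Among the clusters of DF-like cells, Zbtb16 reached 242 CPM in control and 872 CPM in TP in the cluster numbered 20_1, and 103 and 313 CPM in 20_0. At the control's cluster shares the DF-like ratio was 3.14 in place of 2.00. In DPC-like cells the ratio was 5.22 (4.05 to 6.78) and fell to 1.67 at equal shares. Cluster 24 gave 243 of the 313 UMIs in TP, at 103 CPM, and 0 UMIs in its 46 control cells, where 3 counts would be 31.9 CPM. Against that floor the level in TP was at least 3.23-fold higher, and the exact conditional interval of the ratio begins at 2.61. Clusters 7 and 10 had 4.66 and 8.37 CPM in control and 9.65 and 10.2 CPM in TP.

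**Figure D4:**
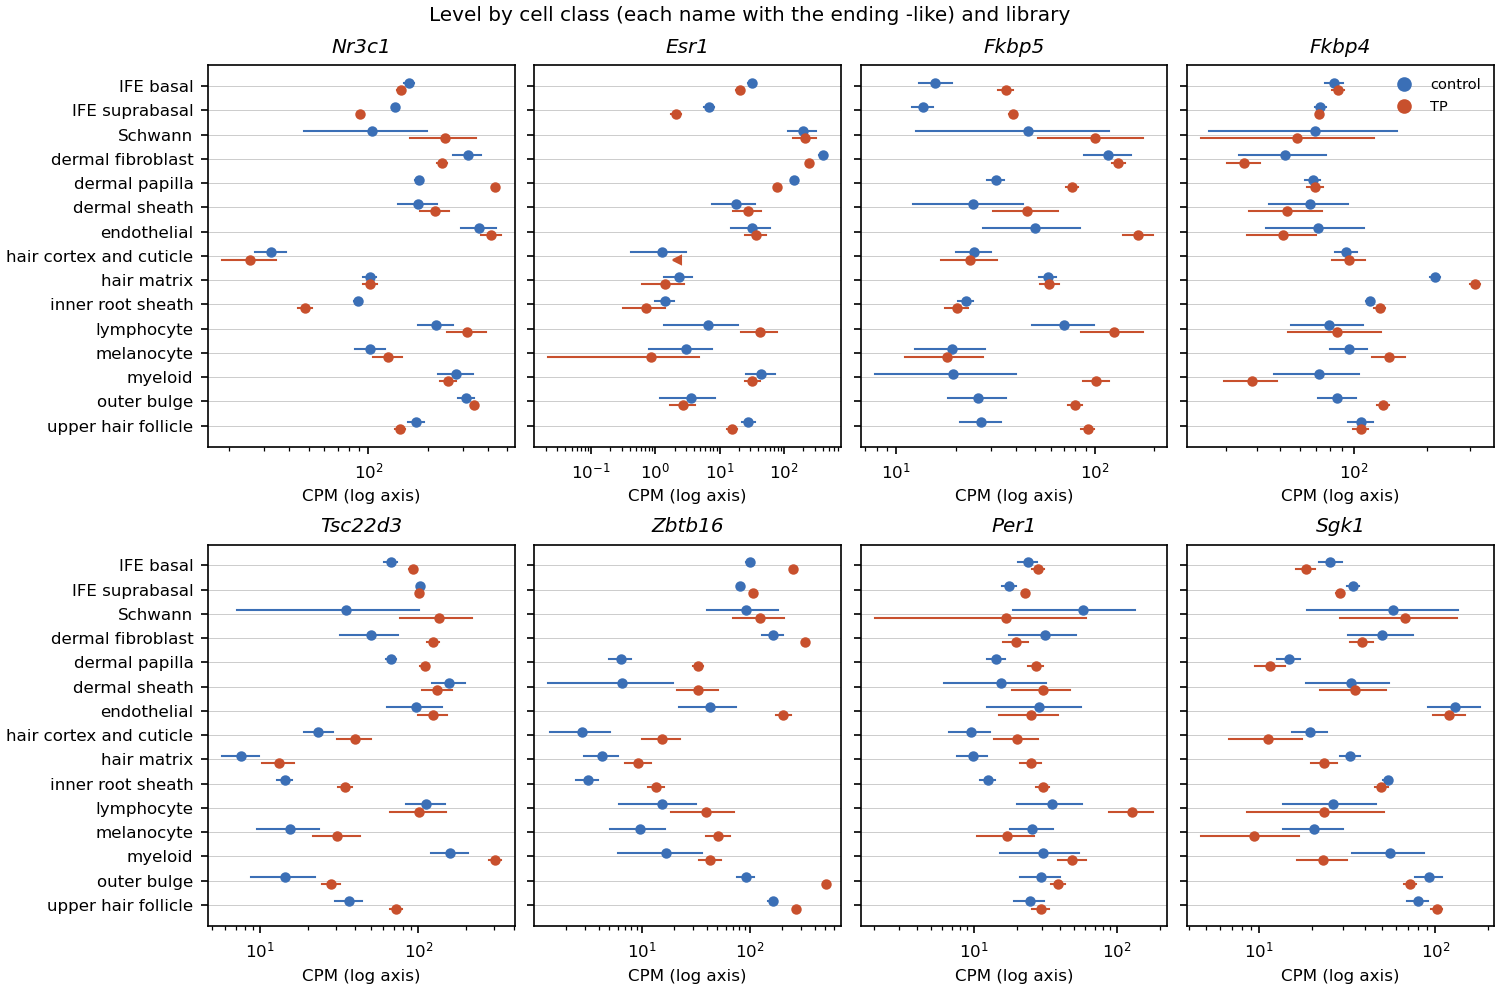
Level of each member by cell class in CPM on log axes, with exact Poisson intervals, control in blue and TP in orange. A left-pointing triangle marks the upper bound of a class with 0 UMIs. Zbtb16 in outer bulge-like cells is at 91.6 and 503 CPM, and Esr1 in DF-like cells is at 405 and 249 CPM.

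Per1 (ENSMUSG00000020893, chromosome 11, 69095108 to 69109965), a repressor of the circadian clock that glucocorticoids and growth signals induce directly, was a low transcript. The control classes lay between 9.50 CPM in hair cortex and cuticle-like and 57.9 CPM in Schwann-like cells, the latter on 5 UMIs, and each overlapped its neighbour among the highest 4. It was at least 2-fold higher in TP in hair matrix-like cells (9.83 and 25.1 CPM, ratio 2.55, 1.91 to 3.45), inner root sheath-like cells (12.5 and 30.4 CPM, ratio 2.43, 2.07 to 2.85), hair cortex and cuticle-like cells (9.50 and 20.04 CPM, ratio 2.11, 1.28 to 3.45) and lymphocyte-like cells (35.2 and 129 CPM, ratio 3.66, 1.957 to 7.12). These hair lineages are those in which Fkbp5 was about equal in both libraries. In the epidermis the ratio was 1.18 (0.982 to 1.42) in basal-like and 1.30 (1.15 to 1.47) in suprabasal-like cells. DF-, melanocyte- and endothelial-like cells had lower values in TP, at 0.631, 0.665 and 0.873, with intervals that include 1.

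A list of 12 immediate-early and heat shock genes that tissue dissociation induces was also higher in TP in most classes, with a median log2 ratio above 0 in 14 of 15. The median was 2.32 in hair matrix-like, 2.17 in hair cortex and cuticle-like and 2.05 in inner root sheath-like cells, and 0.78 in IFE basal-like and 0.25 in IFE suprabasal-like cells. It was 1.28 in lymphocyte-like cells, where the Per1 ratio was 3.66, 2.46 in DPC-like cells, where it was 1.89, and 2.01 in DF-like cells, where it was 0.631. Over all kept cells 11 of the 12 genes were higher in TP, with a median log2 ratio of 1.59 beside -0.24 over all genes tested. At least 2-fold higher were 9, against 8.43% of all genes tested. Atf3 (ratio 4.11), Zfp36 (3.85) and Nr4a1 (3.21) led. The heat shock genes Hspa1b (1.04) and Hspa1a (0.753) were the lowest. Their single values are uncertain because reads of this near-identical pair can be shared. Whether handling of the tissue had a part in the level of Per1, or of the other members, was not tested.

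Sgk1 (ENSMUSG00000019970, chromosome 10, 21882184 to 21999903), a kinase of ion transport and cell survival that glucocorticoids and mineralocorticoids induce, held the match to the glucocorticoid response element shown above. The search covered 250 bases before each start of 6 members, so it does not tell which members have such an element elsewhere. Sgk1 was lower in TP in 11 of 13 classes, in each of which the median over all genes was below 0 too, and 3 of the 11 were above 1 with TMM factors. At least 2-fold lower were myeloid-like cells with 55.5 and 23.1 CPM (ratio 0.416, 0.237 to 0.751) and melanocyte-like cells with 20.6 and 9.42 CPM (ratio 0.457, 0.205 to 0.947), and with TMM factors neither was, at 0.533 and 0.525. Endothelial-like cells were highest in both libraries at 129 CPM (36 UMIs) and 120 CPM (91 UMIs), with a ratio of 0.929 (0.625 to 1.41). Outer bulge-like cells had 91.6 and 72.1 CPM (ratio 0.786, 0.648 to 0.960). The exception with a high count was upper hair follicle-like cells at 79.7 and 102 CPM (ratio 1.28, 1.10 to 1.496). Inner root sheath-like cells had 53.6 and 49.5 CPM on 1289 and 549 UMIs, a ratio of 0.925 (0.835 to 1.02). DPC-like cells were lowest in control at 14.8 CPM and had 11.6 CPM in TP.

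Set side by side, the hormone-induced genes differed in where they were higher. In outer bulge-like cells Zbtb16, Fkbp5 and Tsc22d3 had ratios of 5.49, 3.07 and 1.95, Per1 1.32 and Sgk1 0.786. In inner root sheath-like cells the same genes had 4.31, 0.900, 2.40, 2.43 and 0.925. In myeloid-like cells they had 2.60, 5.26, 1.92, 1.61 and 0.416. No class had all 5 at least 2-fold higher.

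Other genes of glucocorticoid response were measured as a list of 21. This list and the others used here were chosen with earlier results of these data known. Their values beside those of all genes are therefore a description only. Over all kept cells 15 were higher in TP, with a median log2 ratio of 0.65, beside -0.24 over all genes tested. At least 2-fold higher were 7 and at least 2-fold lower 0, against 8.43% and 10.5% of all genes tested. The largest ratios were those of Cebpd, a transcription factor of adipocyte and acute phase genes (5.01, 4.68 to 5.38), Dusp1, a phosphatase that switches off MAP kinases (2.92), and Lcn2, an iron-binding acute phase protein (2.74). Dusp1 also belongs to the genes that dissociation induces, and whether other genes of the list do was not examined. The smallest were those of Klf15 at 0.518, Hif3a at 0.768 and the metallothionein Mt2 at 0.856. By class the median was highest in myeloid-like cells at 0.91, where 14 genes were tested. Of these 6 were at least 2-fold higher and 3 at least 2-fold lower, against 8.09% and 14.5% of all genes in that class. In IFE suprabasal-like cells the median was -0.28, beside -0.31 over all genes. Of 21 genes tested there, 1 was at least 2-fold higher and 3 lower, against 2.82% and 14.6% of all genes in that class. Of 18 genes tested, DF-like cells had 6 at least 2-fold higher and 1 lower, against 5.2% and 12.7%. Outer bulge-like cells had 0 and 1 of 18, against 4.9% and 5.83%, so these counts were near the shares over all genes.

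Of 11 chaperone genes of the receptor machine, 5 were higher in TP. At least 2-fold higher was 1, the heat shock gene Dnajb1 (2.70), against 8.43% of all genes tested. Bag1 (1.32) and Hspa8 (1.28) came next, and Hsp90aa1 (0.852), Ppid (0.830) and Ppp5c (0.813) were lowest. The median log2 ratio was -0.03, beside -0.24 over all genes tested. By class, 11 of 11 were higher in outer bulge-like cells and 10 in hair matrix- and in melanocyte-like cells, but 4 in DF-, in dermal sheath- and in endothelial-like cells. The median over all genes differs between classes too. The chaperone median was 0.33 in outer bulge-, 0.33 in hair matrix- and 0.53 in melanocyte-like cells, beside -0.09, -0.11 and -0.14 over all genes. It was -0.01 in DF-, -0.07 in dermal sheath- and -0.05 in endothelial-like cells, beside -0.25, -0.11 and -0.03. Hsp90aa1 was 1.66 (1.54 to 1.80) in outer bulge-like and 0.739 (0.632 to 0.863) in dermal sheath-like cells. Among other receptors and enzymes of local steroid conversion, 6 of 7 had at least 50 UMIs and 2 of them were higher. These were Hsd11b2, which inactivates glucocorticoids (1.53, 1.29 to 1.83), and Hsd11b1, which regenerates them (1.34, 1.17 to 1.53). Within classes Hsd11b2 was 3.96 (1.77 to 10.96, 6 and 140 UMIs) in outer bulge-like cells and 1.247 (0.978 to 1.59) in DPC-like cells. Hsd11b1 was 0.477 (0.356 to 0.633) in DPC-like cells, 1.05 (0.744 to 1.53) in DF-like cells and 1.47 (1.02 to 2.11) in lymphocyte-like cells. Nr3c2, the mineralocorticoid receptor, had 0.846, Gper1 0.539, H6pd 0.531 and Esr2, the oestrogen receptor beta, 0.513, although Esr2 was at 1.20 in inner root sheath-like and 1.46 in upper hair follicle-like cells, with intervals that include 1. Pgr, the progesterone receptor, had 3 and 12 UMIs.

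Of 3 oestrogen-response genes Xbp1 was higher at 1.94, while Nrip1 had 0.889, which lies above 1 with TMM factors, and Greb1 had 0.631. By class, Greb1 was at 7.46 (1.27 to 301, 1 and 44 UMIs) in outer bulge-like and 0.574 (0.374 to 0.864) in hair matrix-like cells. In DF-like cells all 3 were higher, Greb1 on 1 and 20 UMIs. Of 15 clock genes 8 were higher, with 0 past 2-fold in either direction, against 8.43% higher and 10.5% lower over all genes tested. Their median log2 ratio was 0.04, beside -0.24 over all genes tested. Nr1d1 (1.99), Bhlhe40 (1.48) and Npas2 (1.43) had the largest ratios and Per2 (0.729), Tef (0.587) and Per3 (0.556) the smallest. Over all kept cells the paralogues of Per1 were thus below 1, with TMM factors too. By class, Per2 was at 2.20 (1.12 to 4.82) in upper hair follicle-like cells, where Per3 was at 0.424 and Per1 at 1.19, and at 0.815 (0.643 to 1.03) in DPC-like cells.

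**Figure D5:**
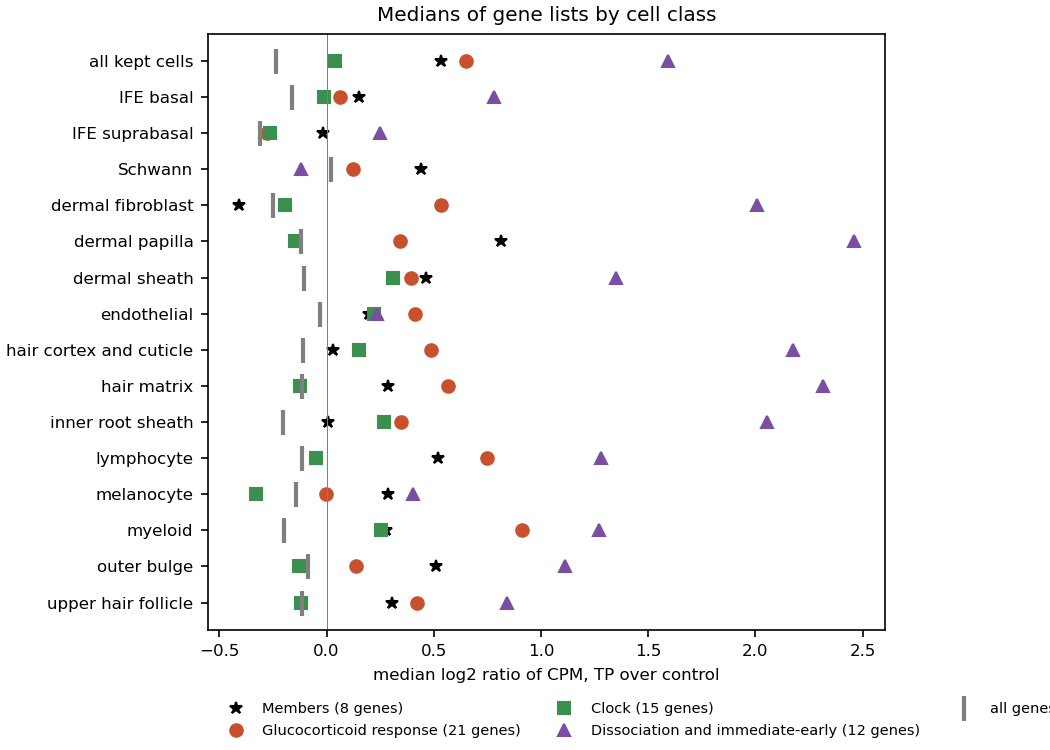
Median log2 ratio of CPM, TP over control, of the members, the glucocorticoid response genes, the clock genes and the dissociation and immediate-early genes in all kept cells and each class. Grey ticks are the median over all genes tested. The immediate-early median is 2.46 in DPC-like and 0.25 in IFE suprabasal-like cells.

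The genes whose log2(CPM + 1) was most like that of each member over 15 classes in both libraries (30 points, 13329 candidate genes) are given as a description, since the points share libraries and depth. Nr3c1 was most like Dnmt3a (r = 0.88), Slc29a1 and Mapk9, and Esr1 most like Kcnt2 (r = 0.85), Il6st and Fndc3b. For Fkbp4 the nearest were Lsm8 (r = 0.92), Snu13 and Snrpa1, and for Fkbp5 they were Ace (r = 0.72), Adamtsl3 and Csf1. Tsc22d3 lay nearest to Ypel3 (r = 0.84), Galnt7 and Map7d1, and Zbtb16 to Cav1 (r = 0.79), Anxa2 and Gstm1. Per1 had Saraf (r = 0.76), Pnrc1 and Ypel5, and Sgk1 had Atp8b1 (r = 0.75), Foxo1 and Galnt18. Among the members themselves the widest contrast was between Fkbp4 and Tsc22d3 (r = -0.77), and the closest pair was Nr3c1 and Esr1 (r = 0.63).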

How the data were processed

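Skin cells of the control and TP libraries, each a pool of 15 mice, were analysed. The authors ran Cell Ranger 8.0.1 on mm10, and the deposited values are raw UMI counts for each gene in each barcode. The treatment of intronic reads is not given in the sources used here, and levels of genes with long introns, such as Nr3c1, Esr1 and Zbtb16, depend on it. Barcodes were kept where they had 200 to 8000 genes and no more than 10% of counts from mitochondrial genes, and the 7.5% of barcodes most like artificial doublets were removed by a rewritten DoubletFinder procedure. Seurat 5.3.0 (R 4.3.3) gave reciprocal PCA integration with 30 components and clusters at resolution 1. Of 2000 variable genes 1979 were used, since the 77 members and list genes were kept out. The cluster highest in the fibroblast markers Dpt, Lum, Clec3b, Mfap5 and Pi16 was split again at resolution 0.3. That split gave all DF-like clusters and the Schwann-like cluster. Clusters were named by a marker score of at least 1.25 with at least 3 markers. In addition, no other marker list could have more genes among the leading 10, and very shallow clusters needed a marker there. By these rules 6 stayed unnamed (33.3% of control and 11.2% of TP cells). One of them, led by Myh11, Acta2 and Tagln, scored 3.98 for pericytes and smooth muscle but had more dermal sheath markers among its leading 10.

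UMIs were summed per class and library and divided by the total in Python 3.11.15 (scipy 1.17.1). For shares every cell was thinned to 1000 UMIs, so that 5362 shallower control cells and 885 of TP did not enter. edgeR 4.0.16 gave TMM factors only. The sums and ratios were tested on simulated data. Ratios needed at least 50 UMIs over both libraries for whole libraries and 20 within a class. The members and gene lists were chosen with earlier results of these data known. Named list genes are the 3 largest and 3 smallest whole-library ratios per list, and similar genes are the 3 of highest correlation among genes with at least 200 UMIs. Alternatives are given in the closing section.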

Additional observations from a re-analysis of the deposited data

How the results depend on the processing

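Each pool is 1 library, so no value here carries an error between animals, and the depth limits mainly the small classes. No paired analysis was possible because each group has 1 library and the labels give no replicate numbers. For whole-library ratios in the order Nr3c1, Esr1, Fkbp5, Fkbp4, Tsc22d3, Zbtb16, Per1 and Sgk1, TMM factors gave 1.42, 1.01, 2.09, 1.15, 2.26, 5.33, 2.12 and 1.13. The control's cluster shares gave 0.918, 0.548, 1.39, 1.15, 1.37 and 2.28 for the first 6 and 0.996 for Sgk1. Equal weight per cell gave 1.55, 1.19, 2.04, 0.828, 2.41, 7.20 and 1.93 for the first 7. Thinning to 1000 UMIs gave 1.46, 1.04, 2.03, 0.911, 2.40, 6.81 and 1.94 for the same genes. The mean of ln(counts per 10000 + 1) gave 1.63, 1.34, 2.33, 1.13, 2.80, 6.04, 2.56 and 1.24. A limit of 5% mitochondrial counts moved Nr3c1 to 1.15, Esr1 to 0.713, Fkbp4 to 0.989, Tsc22d3 to 1.71, Zbtb16 to 3.45 and Sgk1 to 1.02, and keeping doublets moved Nr3c1 to 1.16. Fkbp5, Tsc22d3, Zbtb16 and Per1 stayed above 1 in all of these, and Nr3c1, Esr1, Fkbp4 and Sgk1 changed sides in at least 1. Pairs of a member and a class at least 2-fold higher numbered 20 of 88 tested at resolution 0.6 and 21 of 93 with a minimum of 50 UMIs. They were 23 of 84 after thinning to 1000 UMIs and 25 of 103 at the 5% mitochondrial limit. TMM factors gave 34 of 110, and the share over all genes under that scaling was not computed. Pairs at least 2-fold lower numbered 1 to 4, with 1 under TMM factors, where both lower pairs of Sgk1 were lost. The ratio of shares of cells with a UMI was 1.29, 0.981, 1.91, 0.909, 2.32, 5.22, 1.91 and 0.945 in the same order of genes. Unthinned cells gave 2.04, 1.70, 3.15, 1.64, 3.57, 6.05, 4.0004 and 1.93, and thinning to 2000 UMIs moved Nr3c1 to 1.22, Fkbp5 to 1.65, Fkbp4 to 0.856, Tsc22d3 to 2.02 and Zbtb16 to 4.45. The cause was not tested. The weighting of clusters within a class was chosen after seeing the data and gave 23 higher and 4 lower pairs. By the mean level of both libraries, the class with the highest level was the same at resolution 0.6 for 6 members, although in single libraries the highest class of Nr3c1, Fkbp5, Zbtb16 and Per1 differed between control and TP. A cluster of 36 control and 309 TP cells, led by Gpc5, Dkk2 and Igfbp3, lost its DPC name there with a score of 1.22. Also there, the myeloid-like and lymphocyte-like clusters had merged into one without a name, and Tsc22d3 and Per1 were highest in endothelial-like and Schwann-like cells. By thinned share it was the same for 7, and Zbtb16 was highest in DF-like cells.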

Other observations

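In the cells of the unnamed cluster led by Myh11, Acta2 and Tagln (61 control and 108 TP cells), Zbtb16 had 108 CPM in control and 257 CPM in TP (19 and 137 UMIs), and Fkbp5 had 17.0 and 56.2 CPM (3 and 30 UMIs). The unnamed cluster 0 held 6276 control and 390 TP cells of low depth, with a median of 904 UMIs, and its Fkbp5 was at 30.8 and 60.9 CPM (209 and 29 UMIs) and its Zbtb16 at 5.46 and 48.3 CPM (37 and 23 UMIs). The unnamed cluster 16, led by Hist1h2ae, Mt1 and Mt2, had 36.8 and 40.1 CPM of Fkbp5.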
